A study of Mus musculus with 3 samples.

Results

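Naive CD4 T cells with a high share of Rn45s, the feature that collects reads of the ribosomal RNA precursor, were compared with cells of the same plate whose Rn45s share lay near its median. For each cell the Rn45s share is the percent of its unique molecular identifiers (UMIs, the tags that mark single captured molecules), spike-ins left out, that fell on Rn45s. Within each of 3 plates, cells at or above the 90th percentile of this share formed the high class, and cells between the 25th and 75th percentiles the middle class. The high class held 72 of 697 cells, 18, 21 and 33 in plates 1, 2 and 3, and the middle class held 349, with 86, 101 and 162. The remaining cells were an upper class of 102 cells between these bounds and a low class of 174 cells below the 25th percentile. All cells were freshly sorted, untreated T cells from spleen and lymph node of C57BL/6 mice 8 to 12 weeks old, with male and female animals pooled. The sort took live singlets that were TCRb+, CD4+, CD8-, CD62L+, CD44-, CD25- and CD5+, with 1 cell per well of a 384-well plate, so both classes share strain, treatment and gate. RNA was captured with a poly-T primer carrying a UMI of 6 bases and amplified by in vitro transcription (SORT-seq).

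Ribosomal RNA is made in the nucleolus. RNA polymerase I copies repeated genes into a long precursor, which assembly factors and the RNA exosome trim into the rRNAs of the small and large ribosomal subunits. Polymerase III makes the remaining cytosolic rRNA, and mitochondria transcribe both of their own rRNAs, mt-Rnr1 and mt-Rnr2, from the mitochondrial genome. A resting naive T cell is small and makes few ribosomes, and ribosome production rises when such a cell is activated. Most rRNA has no poly-A tail, so a poly-T primer captures it incompletely.

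The capture primer carried a run of 24 T, so the most A-rich stretch of 24 bases is shown for mt-Rnr1, mt-Rnr2 and Malat1, which were called, and for Gm42418. Mir5109, also a called noncoding gene, is left out because its sequence was not used here. The longest run of A within each stretch is in capitals. Sequences are GENCODE M21 transcripts on GRCm38, written 5′ to 3′, and Gm42418 is the annotated transcript on chromosome 17 that overlaps part of the rRNA precursor locus.
mt-Rnr1: ataaataaataaatagaattAAAA
mt-Rnr2: ctAAAAAAAcaacaaaatcaaaaa
Malat1: aaagaagcaagatagAAAAAcaaa
Gm42418: gAAAAAAttagagtgttcaaagca
The stretch of mt-Rnr2 held 18 A, those of mt-Rnr1 and Malat1 17 each and that of Gm42418 12. Of 55341 annotated genes, 14.2% had a stretch with at least 18 A, 21.2% one with at least 17 and 84.4% one with at least 12. Of the other called genes, the stretch of Filip1l also held 17 A, that of Olfr1033 15 (45.2% of genes have as many) and that of Lars2 14 (59.7%). Whether priming inside transcripts contributed to any value was not tested.

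Rn45s was present in every cell, from 1 UMI to 3107, and the high cells held a large part of it. The 90th percentile was 3.45% of UMIs for plate 1, 9.77% for plate 2 and 4.77% for plate 3. The lowest share of the high class of plate 1, 3.46%, lay within the middle class of plate 2, which reached 5.61%. In plate 1, high cells ran between 3.46% and 17.1% with a median of 4.99%, and middle cells had a median of 1.46%. In plate 2, high cells ran between 9.77% and 21.0% with a median of 12.9%, and middle cells had a median of 2.62%. In plate 3, high cells ran between 4.77% and 50.8% with a median of 7.01%, and middle cells had a median of 1.31%. The high cells carried 40.9%, 37.6% and 44.3% of all Rn45s UMIs of plates 1, 2 and 3, beside 14.3%, 12.2% and 10.2% of the other UMIs. The cells were chosen by these values, which are given as a description.

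**Figure D1:**
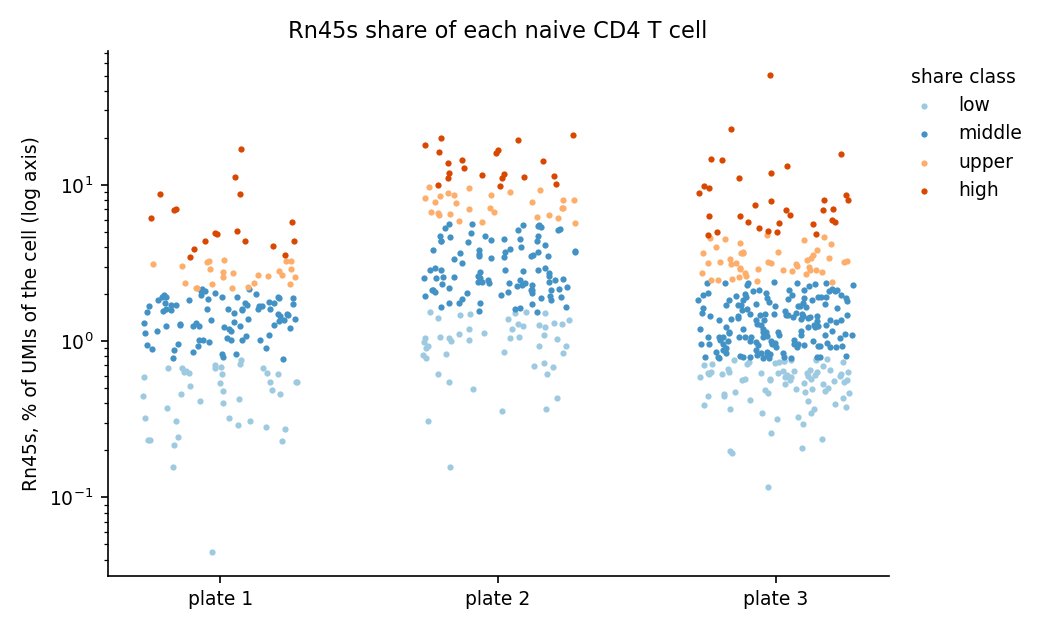
Rn45s share of each cell, in percent of its UMIs on a log axis, by plate, with cells coloured by class. The classes are bands of 1 continuous spread, and high cells start at 3.46%, 9.77% and 4.77% in plates 1, 2 and 3.

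The bound of the high class cut a continuous spread. The 2 cells just above it had 3.46% and 3.57% in plate 1, 9.77% and 9.97% in plate 2, and 4.77% and 4.83% in plate 3. The 2 cells just below it had 3.31% and 3.26% in plate 1, 9.72% and 9.59% in plate 2, and 4.76% and 4.61% in plate 3. At the upper end 1 cell of plate 3 stood apart, with 50.8% against 22.8% in the next cell of its plate. That cell held 3107 Rn45s UMIs beside 3011 other UMIs, and had a mitochondrial share of 11.9%. Its Rn45s count would correspond to 2178 distinct tags, a number calculated back from the count and not observed.

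High cells did not hold a uniformly larger or smaller amount of other RNA. Median non-Rn45s UMIs were 4807, 6275 and 3113 in high cells of plates 1, 2 and 3, against 3525, 5664 and 3545 in middle cells. They were higher in plates 1 and 2 and lower in plate 3. Spike-ins, the same amount of synthetic RNA in each well, gave medians of 1105, 945 and 1344 UMIs in high cells and 1100, 1040 and 1304 in middle cells. UMIs per spike-in UMI were 4.43, 6.82 and 2.92 in high cells, against 3.45, 5.48 and 3.16 in middle cells, higher in plates 1 and 2 and lower in plate 3, as for the UMIs themselves. Cells thinned at random to 2075 UMIs showed medians of 908, 884 and 916.5 genes in high cells and 911, 896 and 939 in middle cells. Genes were thus slightly fewer in 3 of 3 plates, and the log2 ratio averaged -0.020 ± 0.015 (SD over 3 plates). An exact permutation test that flips the sign of each plate gave a two-sided p of 0.25, the smallest that 3 plates allow, and an adjusted p of 0.5 over 8 measures. Of the cells, 8 high ones (11.1%) and 82 middle ones (23.5%) were too shallow for this thinning.

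The defining markers of the sorted population were present in both classes. All 9 defining naive CD4 T cell genes were present in both, and all 72 high and all 349 middle cells had at least 1 UMI of them. Their summed level was 5794 to 7023 CPM (counts per 1e6 UMIs) over the plates in high cells and 5184 to 6670 in middle cells. CD8 T cell markers summed to at most 31.1 CPM in high and 21.2 CPM in middle cells, and NK cell markers to at most 78.7 CPM in high and 54.9 CPM in middle cells. A UMI of the CD8 markers was found in 6.94% of high and 5.73% of middle cells. For the NK markers it was 15.3% and 9.46%. The 3 myeloid markers in the table summed to 179 to 374 CPM in high and 246 to 293 CPM in middle cells, with a UMI in 54.2% of high and 51.9% of middle cells. For 7 markers of activated or memory T cells the sums were 62.3 to 158 CPM in high and 124 to 177 CPM in middle cells, with a UMI in 34.7% of high and 36.4% of middle cells. The 6 regulatory T cell markers summed to 150 to 828 CPM in high cells and 262 to 363 CPM in middle cells. They had a UMI in 54.2% of high and 41.5% of middle cells, and 5 high and 31 middle cells had a Foxp3 UMI. Among these markers was Folr4, an older name of the folate receptor gene Izumo1r. It had 840, 324 and 65.5 CPM in high cells of plates 1, 2 and 3, against 187, 284 and 140 CPM in middle cells. Of the Folr4 UMIs of the high class, 1 cell held 30.9%. Levels of single genes are TMM-scaled CPM throughout. The Folr4 difference went both ways between plates and did not pass the test across genes described next.

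Gene levels were compared after removing Rn45s from every cell and from the totals. Counts of each plate and class were summed, and high was set against middle with the plate as a block (edgeR quasi-likelihood test, Benjamini-Hochberg adjusted p under 0.05). Of 3892 genes tested, 7 were higher in high cells and 0 were lower, which is 0.180% of the genes. At an unadjusted p under 0.05 there were 213. DESeq2 also called 7 higher and 0 lower, and edgeR without the plate block called 4 higher and 0 lower. The 7 genes were Mir5109, mt-Rnr2, mt-Rnr1, Lars2, Malat1, Filip1l and Olfr1033. Together they took 4.24%, 5.92% and 6.26% of non-Rn45s UMIs in high cells of plates 1, 2 and 3, against 2.83%, 3.81% and 2.50% in middle cells. Of this, mt-Rnr1 and mt-Rnr2 made up 3.31%, 4.58% and 5.31% in high cells and 2.40%, 3.17% and 2.16% in middle cells. The 7 were picked as higher in these same cells, so the sums are a description only. The median log2 difference of all genes was 0.005, and 1961 of the 3892 were above 0. Nothing in the labels ties a plate to separate animals, so these p-values measure the spread between sums of cells in 3 plates, which may be technical.

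**Figure D2:**
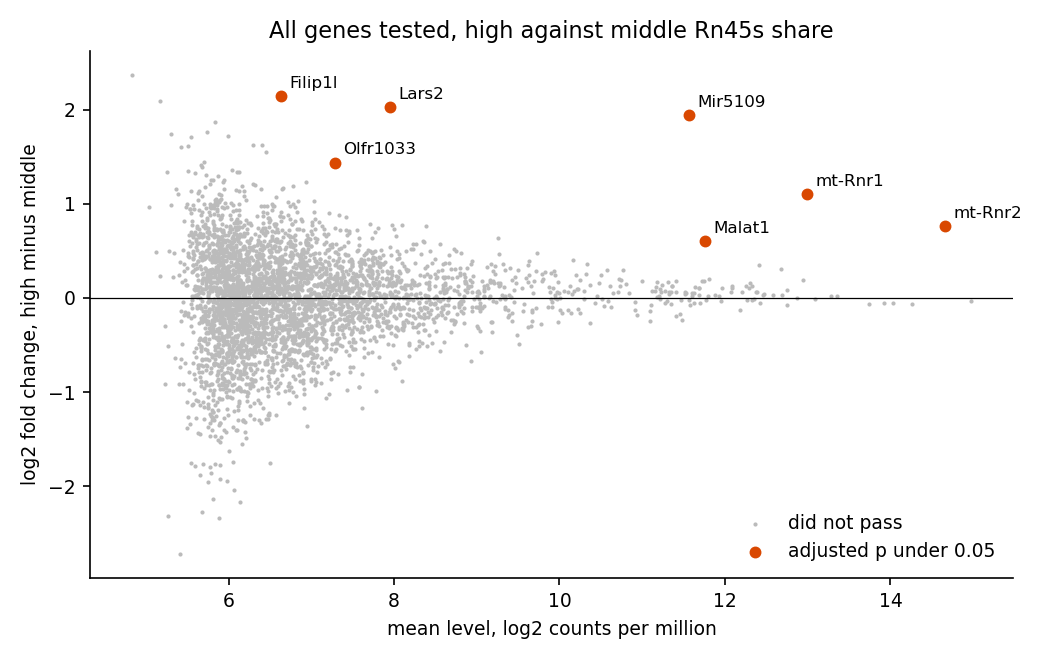
Log2 fold change of each of 3892 genes, high minus middle Rn45s share, against its mean level in log2 CPM. The 7 genes past the adjusted threshold, in orange and named, all lie above 0.

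Mir5109, an annotated microRNA gene, followed Rn45s most closely. It is listed among features that can take reads of ribosomal RNA, so its reads may not be separable from those of Rn45s, and its level is reported as uncertain. Mir5109 had 5788, 8280 and 5385 CPM in high cells of plates 1, 2 and 3, against 1553, 2439 and 1206 CPM in middle cells. The lowest high value lay above the highest middle value. The log2 difference was 1.94 ± 0.12 (SE, edgeR adjusted p = 2.92e-14), a 3.84-fold higher level. Across all 4 classes its mean CPM was 579 ± 227 in low, 1733 ± 636 in middle, 3417 ± 1762 in upper and 6484 ± 1568 in high cells (SD, n = 3 plates). At least 1 Mir5109 UMI was found in 71 of 72 high cells and 287 of 349 middle cells. In relation to Rn45s itself, there were 8.33, 4.38 and 4.35 Mir5109 UMIs per 100 Rn45s UMIs in high cells, against 9.67, 6.75 and 8.01 in middle cells. The choice of cells by Rn45s lowers this ratio in high cells by itself, so nothing is read from it.

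Both mitochondrial rRNAs were higher. The mitochondrial large-subunit rRNA mt-Rnr2 (GRCm38, chrM:1094-2675, plus strand) had 26444, 40113 and 42494 CPM in high cells of plates 1, 2 and 3, against 19468, 27245 and 18022 CPM in middle cells. The ranges over plates overlapped, but within each plate the high class was above the middle class. The upper class had 26784, 36107 and 26110 CPM, slightly above the high class in plate 1 and below it in plates 2 and 3. The log2 difference of mt-Rnr2, high minus middle, was 0.76 ± 0.09 (SE, edgeR adjusted p = 1.48e-06), which is 1.69-fold. The small-subunit rRNA mt-Rnr1 (chrM:70-1024, plus strand) had 11252, 11370 and 18137 CPM in high cells, against 6813, 7078 and 5179 CPM in middle cells, with no overlap. Its log2 difference was 1.10 ± 0.13 (SE, edgeR adjusted p = 1.48e-06), or 2.15-fold. For both genes plate 3 showed the largest difference, with log2 ratios of 1.24 for mt-Rnr2 and 1.81 for mt-Rnr1. Without plate 3 the log2 difference was 0.49 for mt-Rnr2 and 0.69 for mt-Rnr1, with edgeR adjusted p = 6.89e-07 and 7.68e-07.

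Lars2, which encodes the mitochondrial leucyl-tRNA synthetase (GRCm38, chr9:123366927-123462666, plus strand), had 481, 805 and 450 CPM in high cells of plates 1, 2 and 3, against 178, 167 and 91.0 CPM in middle cells. Its values did not overlap between classes. The log2 difference was 2.02 ± 0.31 (SE, edgeR adjusted p = 0.000207), or 4.06-fold. It was found in 51 of 72 high cells (70.8%, exact 95% interval 58.9 to 81.0) and in 113 of 349 middle cells (32.4%, 27.5 to 37.6); among cells thinned to 1 depth the shares were 54.7% and 19.9%. A single cell held 17.4% of the Lars2 UMIs of the high class. Lars2 is on the list of features that can take rRNA reads and its level is uncertain in the same way as that of Mir5109. Its annotated transcripts shared 0 stretches of 20 bases with Gm42418, which says only that these letters are not shared with that part of the rRNA precursor.

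Malat1, an abundant nuclear long noncoding RNA (GRCm38, chr19:5795690-5802672, minus strand), had 3672, 5628 and 4583 CPM in high cells of plates 1, 2 and 3, against 2877, 4153 and 2286 CPM in middle cells. The ranges overlapped between plates while each plate showed the same order. The upper class, just below the high class, had 3672, 5977 and 3481 CPM. Upper cells were thus level with high cells in plate 1, above them in plate 2 and below them in plate 3. The log2 difference of Malat1, high minus middle, was 0.60 ± 0.10 (SE, edgeR adjusted p = 0.00112), or 1.52-fold. Plate 3 had the largest ratio, and without it the log2 difference was 0.38 with edgeR adjusted p = 0.356. The call was also lost in cells thinned to 1 depth (log2 0.57, edgeR adjusted p = 0.0675) and without the plate block (log2 0.58, edgeR adjusted p = 0.999). Of the other 4 tested genes on the list of nuclear long noncoding RNAs, 0 passed, and 2900097C17Rik, the next by p, had a log2 difference of 0.58 ± 0.39 (SE, edgeR adjusted p = 0.92).

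The last 2 of the 7 were lowly expressed. Filip1l, a gene named for its likeness to a filamin-binding protein, had 179, 114 and 327 CPM in high cells of plates 1, 2 and 3, against 29.1, 59.5 and 47.1 CPM in middle cells. All high values lay above all middle values, and the log2 difference was 2.14 ± 0.42 (SE, edgeR adjusted p = 0.0103). It rested on 20 of 72 high cells with a Filip1l UMI, of which 1 held 27.6% of the class's UMIs, and on 38 of 349 middle cells. The call was lost without plate 1 (edgeR adjusted p = 0.362) and without plate 3 (edgeR adjusted p = 0.67). Filip1l lies inside Cmss1, which is read from the opposite strand, and whether the authors counted by strand was not stated in the labels. Olfr1033, annotated as an olfactory receptor gene, had 470, 324 and 172 CPM in high cells, against 132, 157 and 66.7 CPM in middle cells, also with no overlap. Its log2 difference was 1.44 ± 0.32 (SE, edgeR adjusted p = 0.0448), and the call was lost without plate 1 (edgeR adjusted p = 0.723), without plate 2 (0.214) and without plate 3 (0.143). The fold of Olfr1033 was 2.71, against 1.70 in cells thinned to 1 depth (edgeR adjusted p = 0.85) and 2.14 with middle cells matched on depth (0.501).

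**Figure D3:**
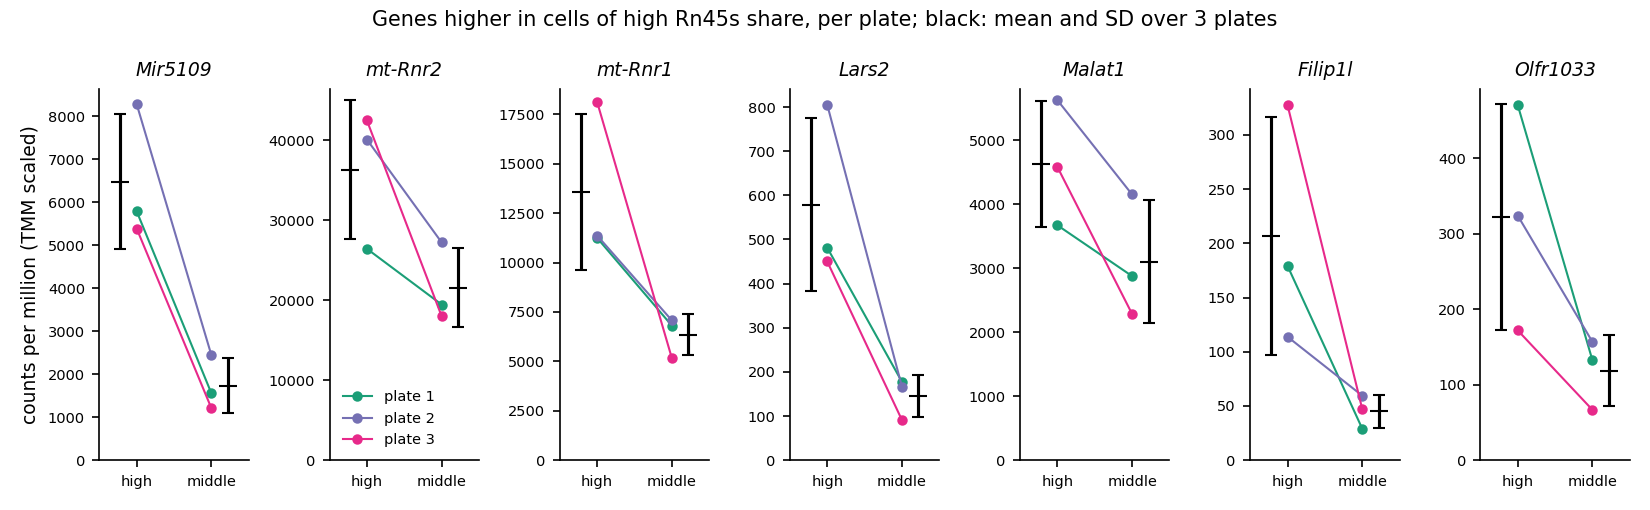
TMM-scaled CPM of the 7 genes that passed, in the high and middle class of each plate, with 1 line per plate and the mean and SD over 3 plates in black. Every line falls towards the middle class, and plate 3 is steepest for mt-Rnr1 and mt-Rnr2.

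The messenger RNAs of the mitochondria gave 0 calls between high and middle cells and did not all lie on 1 side of 0. Of 14 mitochondrial genes tested, both rRNAs rose, 0 fell and 12 did not pass. A log2 difference above 0 was found for 5 of the 14, both rRNAs among these 5. The median over all 14, rRNAs included, was -0.02. Among those that did not pass, mtNd5, a complex I subunit, had 9673, 5190 and 5410 CPM in high cells of plates 1, 2 and 3, against 6374, 3968 and 5213 CPM in middle cells (log2 difference 0.35 ± 0.09 SE, edgeR adjusted p = 0.223), and passed without plate 3 (log2 0.48, edgeR adjusted p = 0.0134). Another complex I subunit gene, mtNd4l, had a log2 difference of 0.40 ± 0.16 (SE, edgeR adjusted p = 0.875). Summed over the class, there were 24.6, 47.5 and 44.3 mitochondrial rRNA UMIs per 100 mitochondrial mRNA UMIs in high cells, against 17.5, 30.5 and 16.4 in middle cells. Within the rRNAs, mt-Rnr1 gave 42.5, 28.3 and 42.7 UMIs per 100 UMIs of mt-Rnr2 in high cells, against 35.0, 26.0 and 28.7 in middle cells.

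Cell by cell the picture was the same. The median mitochondrial rRNA share was 3.10%, 4.64% and 3.91% in high cells of plates 1, 2 and 3, against 2.13%, 2.84% and 1.88% in middle cells, and the log2 ratio averaged 0.77 ± 0.27 (SD over 3 plates). It was higher in 3 of 3 plates (exact permutation p = 0.25; adjusted p = 0.5). The median mitochondrial mRNA share was 12.9%, 9.29% and 12.2% in high cells, against 14.0%, 10.1% and 13.4% in middle cells. Each of the 3 plates showed it lower in high cells, the log2 ratio averaged -0.12 ± 0.008 (SD, n = 3), and it has no test because it was added after the other measures. The share of all mitochondrial transcripts, a common sign of cell quality, differed little, with 16.4%, 13.6% and 16.9% in high cells against 16.3%, 13.6% and 15.9% in middle cells (mean log2 ratio 0.03 ± 0.05, SD, n = 3; exact permutation p = 0.25; adjusted p = 0.5). Among high cells, 14 (19.4%) lay at or above the 90th percentile of their plate for this share, as did 34 middle cells (9.74%). For the mitochondrial rRNA share alone the numbers were 25 high cells (34.7%) and 24 middle cells (6.88%). Without all cells at or above that percentile of the mitochondrial share, 6 of the 7 genes were still called.

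**Figure D4:**
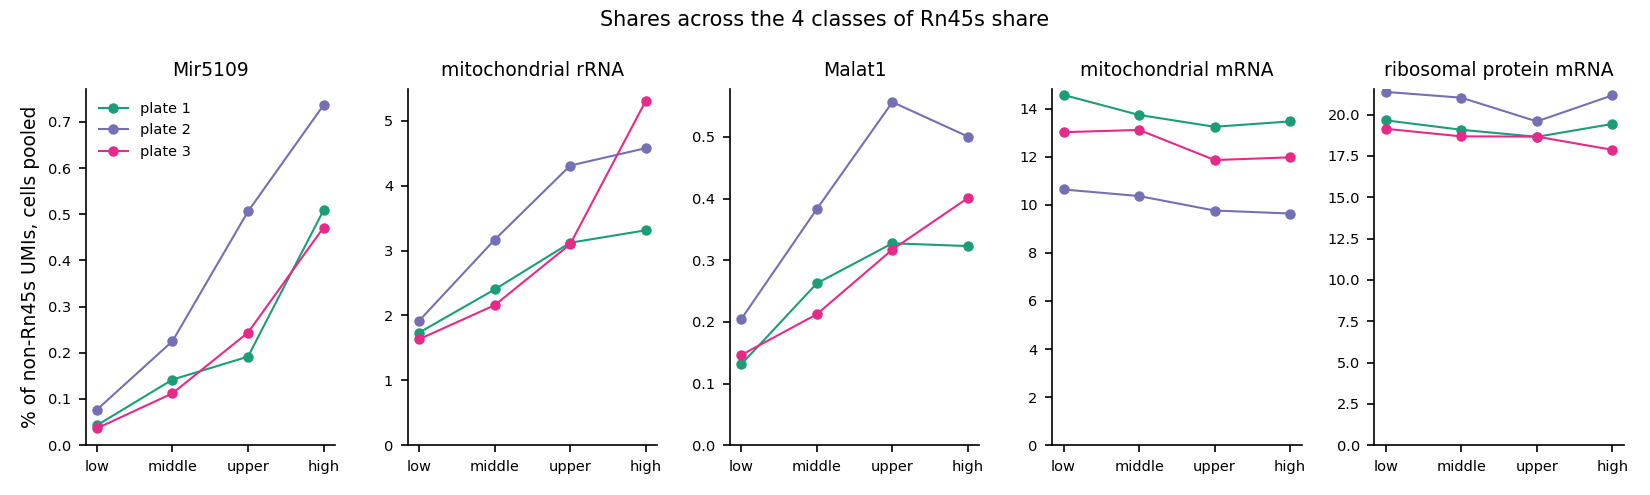
Share of non-Rn45s UMIs taken by Mir5109, mitochondrial rRNA, Malat1, mitochondrial mRNA and ribosomal protein mRNA, with cells pooled by plate, across the low, middle, upper and high classes. Mir5109 and mitochondrial rRNA climb over all 4 classes in each plate, while the ribosomal protein share stays between 17.9% and 21.4%. Malat1 is no higher in the high than in the upper class of plates 1 and 2.

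A trend over all cells asked whether the same genes followed Rn45s below the high class. In each plate the cells were ordered by Rn45s share and divided evenly into 4 summed bins, and each gene's slope was taken per doubling of the bin's share. Of 5082 genes, 9 passed (0.177%), 8 of them rising (0.157%) and 1 falling (0.0197%), and 300 had an unadjusted p under 0.05. The steepest was Mir5109, with a log2 slope of 0.90 ± 0.03 (SE, edgeR adjusted p = 3.17e-22), followed by Lars2 (0.71 ± 0.09) and Bcl9l (0.71 ± 0.14), a cofactor of beta-catenin. Olfr1033 had a slope of 0.57 ± 0.09, mt-Rnr1 0.45 ± 0.03, Malat1 0.39 ± 0.03 and mt-Rnr2 0.32 ± 0.02. The slope of mtNd5 was 0.12 ± 0.02 (SE, edgeR adjusted p = 0.0111). The single falling gene was mtNd3, at -0.12 ± 0.03 (SE, edgeR adjusted p = 0.046). Next by p on the falling side came Pxk, Sat1, Fam120a, mtAtp6 and Itgb1bp1, which did not pass (edgeR adjusted p from 0.151 to 0.26). Their slopes were -0.68, -0.33, -0.31, -0.052 and -0.72. A Pxk UMI was found in 1 of 72 high and 49 of 349 middle cells, and Pxk was not tested between these classes. Sat1 and mtAtp6 each passed in 2 of 13 alternative settings of the trend. Bcl9l overlaps Cxcr5, which is read from the opposite strand. Its call was lost without plate 1 (edgeR adjusted p = 0.0858) and without plate 3 (0.0883), that of mtNd5 without plate 2 (0.99), and that of mtNd3 without plate 1 (0.26), plate 2 (0.846) or plate 3 (0.118). In cells thinned to 1 depth mtNd5 (0.0997), mtNd3 (0.11) and Olfr1033 (0.0517) did not pass. Without the plate block the slope of mtNd5 was 0.017 (0.987) and that of mtNd3 -0.17 (0.193), and neither passed. The trend includes the high cells, so it is not separate evidence for the genes called above.

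For Malat1 the increase began low in the order of cells. Its CPM over the 4 bins, lowest Rn45s share first, was 1460, 2828, 2809 and 3503 in plate 1, 2149, 3191, 4696 and 5672 in plate 2, and 1554, 1904, 2515 and 3773 in plate 3. Only the middle bins of plate 1 departed from a steady climb. Its slopes were 0.39, 0.43 and 0.38 in plates 1, 2 and 3. Filip1l behaved otherwise, with 89.8, 19.1, 37.8 and 106 CPM over the bins of plate 1, 49.7, 68.9, 50.7 and 105 in plate 2, and 94.2, 70.0, 21.8 and 155 in plate 3. It was highest in the top bin of each plate without a steady climb, and its slope of 0.24 ± 0.13 did not pass (SE, edgeR adjusted p = 0.814). For Bcl9l, which did not pass between high and middle cells (log2 difference 0.90 ± 0.51 SE, edgeR adjusted p = 0.891), the bins held 0, 19.1, 88.2 and 140 CPM in plate 1. In plate 2 they held 33.2, 55.1, 87.9 and 105 CPM and in plate 3 34.5, 31.8, 80.9 and 129 CPM. By class, Bcl9l had 89.6, 193 and 73.7 CPM in high cells of plates 1, 2 and 3. Upper cells had 194, 54.8 and 167 CPM, above high cells in plates 1 and 3 and below them in plate 2. The trend call of Bcl9l was also lost with 8 bins in place of 4 (edgeR adjusted p = 0.095).

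Single cells thinned to 2075 UMIs gave the same leading names. Over 557 cells and 5341 genes, the gene whose count ranked most like the Rn45s share was Mir5109, by the lowest of its 3 Spearman correlations within plates, which were 0.58, 0.69 and 0.68. It was followed by mt-Rnr1 (0.47, 0.60 and 0.47), mt-Rnr2 (0.41, 0.51 and 0.49), Malat1 (0.35, 0.44 and 0.45) and Lars2 (0.23, 0.38 and 0.26). The next 3 were much weaker, with lowest values of 0.15 for Tpr, a nuclear pore basket protein, 0.14 for Macf1, a cytoskeletal linker, and 0.14 for Gm1966, annotated as a pseudogene. These correlations describe cells that share a library and have no p. Across all cells at full depth, the Rn45s share had Spearman correlations of 0.16, 0.39 and 0.02 with non-Rn45s UMIs and 0.09, 0.07 and 0.11 with spike-in UMIs.

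Transcripts for making ribosomes gave 0 calls in the same test. The lists that follow were chosen with earlier results of these data known. For comparison, all genes tested gave 0.180% called, 1961 of 3892 above 0 and a median log2 difference of 0.005. For the RNA polymerase I list, 10 of 22 genes could be tested, 0 rose, 0 fell and 7 were above 0, with a median of 0.19. Ttf1, the factor that ends polymerase I transcripts, came nearest with 89.6, 131 and 188 CPM in high cells, against 29.1, 41.6 and 60.1 CPM in middle cells (log2 difference 1.63 ± 0.44 SE, edgeR adjusted p = 0.317). It was found in 21 of 72 high cells and 44 of 349 middle cells. Low cells had 101, 82.4 and 79.2 CPM of Ttf1, above the middle class in each plate and above the high class in plate 1. Its slope in the trend over all cells was 0.09 ± 0.13 (SE, edgeR adjusted p = 0.967). In the ribosome assembly list, 59 of 115 genes were tested, 0 passed and 25 were above 0, with a median of -0.04. Ncl, which encodes nucleolin, had 549, 481 and 270 CPM in high cells, against 329, 264 and 254 CPM in middle cells (log2 difference 0.59 ± 0.24 SE, edgeR adjusted p = 0.875). Mybbp1a, a nucleolar binding partner of Myb, and Dkc1, the pseudouridine synthase of box H/ACA particles, had log2 differences of 0.98 ± 0.42 and 0.93 ± 0.42 (SE, edgeR adjusted p = 0.875 for each). Rpf1, a factor for large-subunit assembly, was at 0, 35.0 and 24.6 CPM in high cells, against 67.8, 71.4 and 69.9 CPM in middle cells, and did not pass either (edgeR adjusted p = 0.875). The RNA exosome list had 0 calls among 12 tested genes and the snoRNA host list 0 among 5.

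Ribosomal proteins and translation factors likewise gave 0 calls. Of 86 cytosolic ribosomal protein genes, 75 were tested, 54 were above 0 and the median log2 difference was 0.06. Rpl14, with the smallest p, had 1008, 910 and 900 CPM in high cells, against 678, 785 and 675 CPM in middle cells (log2 difference 0.39 ± 0.15 SE, edgeR adjusted p = 0.875). The median share of all of them per cell averaged 19.2% ± 1.64 in high cells and 19.3% ± 0.82 in middle cells over plates, and the log2 ratio averaged -0.006 ± 0.07 (SD, n = 3; exact permutation p = 1). Among 38 translation factors 21 were above 0. Of 16 growth regulators 6 were above 0, with Eif4ebp2, a repressor of cap-dependent translation, at 123, 271 and 40.9 CPM in high cells and 25.8, 67.4 and 55.3 CPM in middle cells (edgeR adjusted p = 0.875).

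Lists for T cell state gave 0 calls as well. For the T cell receptor complex and its nearest signalling proteins, 8 of 21 tested genes were above 0, with a median log2 difference of -0.04. For naive state genes it was 13 of 20 with a median of 0.10, for the type I interferon response 14 of 25 with 0.17, and for immediate early genes 7 of 14 with -0.005. For p53 targets it was 1 of 6 with -0.15, for heat shock and chaperone genes 8 of 21 with -0.11, and for cycling genes 3 of 7 with -0.06. In the nuclear-encoded respiratory chain, 32 of 70 were above 0 with a median of -0.09, and Cox4i1, a complex IV subunit, had 504, 481 and 360 CPM in high cells, against 323, 254 and 216 CPM in middle cells (log2 difference 0.77 ± 0.22 SE, edgeR adjusted p = 0.444). Among 30 actin and integrin genes 12 were above 0, with a median of -0.06. Of these, Itgb2, an integrin beta chain, was at -0.48 ± 0.17 and Actg1 at -0.24 ± 0.11, both below 0 in 3 of 3 plates (SE, edgeR adjusted p = 0.875 for each), while Actb had 7288, 7142 and 7980 CPM in high cells, against 5719, 6001 and 6369 CPM in middle cells, with no overlap (log2 difference 0.31 ± 0.08 SE, edgeR adjusted p = 0.223). Actb and mtNd5 did pass when all cells below the 90th percentile served in place of the middle class, which gave 9 calls. With 3 plates, a p that misses the threshold does not show that these levels are alike.

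No gene was called lower in high cells. The 6 genes of smallest p on this side had a UMI in 6.94% to 29.2% of high cells and 13.2% to 41.5% of middle cells. Nfkb1, a subunit of NF-kappa-B, had 168, 78.8 and 81.9 CPM in high cells of plates 1, 2 and 3, against 281, 190 and 237 CPM in middle cells, with no overlap (log2 difference -1.17 ± 0.36 SE, edgeR adjusted p = 0.73). Sar1a, a GTPase of vesicle export, was seen in 5 of 72 high cells and 64 of 349 middle cells (log2 difference -2.17 ± 0.68 SE, edgeR adjusted p = 0.749). Slc35c1, a GDP-fucose transporter, had 67.2, 43.8 and 90.03 CPM in high cells, against 216, 157 and 137 CPM in middle cells (edgeR adjusted p = 0.757). Psmd1 of the proteasome, Vamp1 of vesicle fusion and Srp72 of the signal recognition particle had log2 differences of -1.75, -2.04 and -0.94, with edgeR adjusted p = 0.757, 0.833 and 0.833.

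Surface CD5, which the study recorded for each sorted cell and which on naive T cells follows tonic receptor signals, did not separate the classes. Median CD5 fluorescence was 45006.5, 63591 and 39060 units in high cells of plates 1, 2 and 3, against 46537.5, 49687 and 50220.5 units in middle cells, higher in 1 of 3 plates (mean log2 ratio -0.02 ± 0.36, SD, n = 3; exact permutation p = 0.75; adjusted p = 1). By the authors' classes, 21 high cells had Low CD5 (29.2%, exact 95% interval 19.0 to 41.1), 32 had Middle and 19 had High (26.4%, 16.7 to 38.1). Of the middle cells 78 had Low CD5 (22.3%, 18.1 to 27.1), 167 had Middle and 104 had High (29.8%, 25.05 to 34.9). Intervals cover counting error only.

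**Figure D5:**
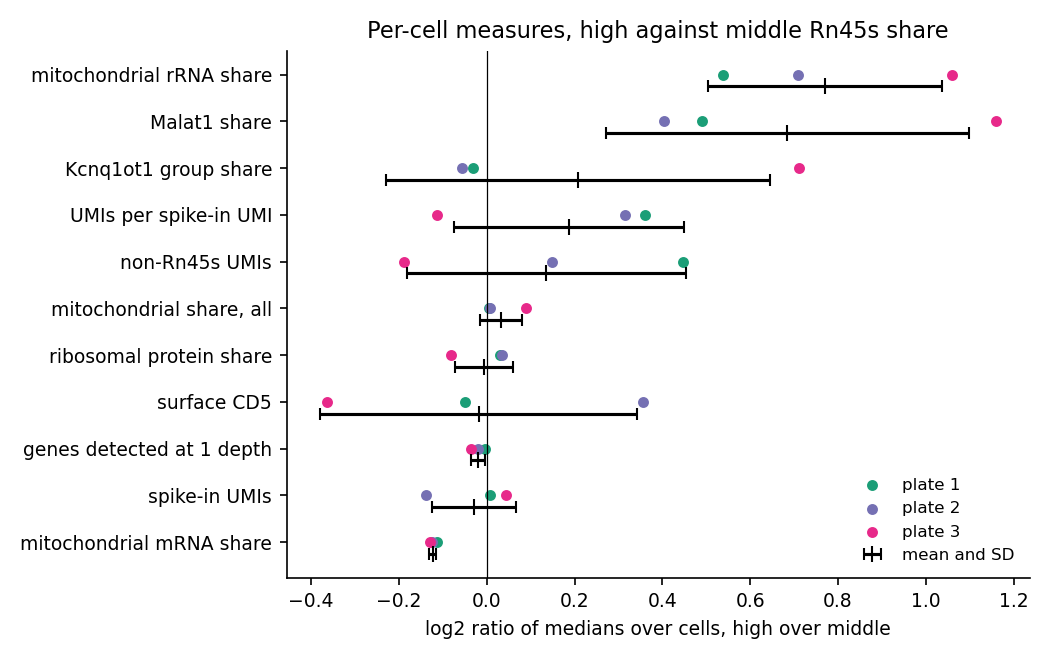
Log2 ratio, high over middle, of the medians over cells of 11 measures, with 1 point per plate and the mean and SD over 3 plates in black. Mitochondrial rRNA and Malat1 shares lie above 0 in all 3 plates, the mitochondrial mRNA share lies below 0 in all 3, and UMIs, CD5 and the Kcnq1ot1 group change side between plates.

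Plate 3 differed from the other plates in some measures that moved with the class. The summed share of the Kcnq1ot1 group, 7 genes known from earlier results to vary together in these cells, among them the long noncoding RNA Kcnq1ot1, was 1.10%, 0.98% and 2.03% in high cells of plates 1, 2 and 3, against 1.12%, 1.02% and 1.24% in middle cells (mean log2 ratio 0.21 ± 0.44, SD, n = 3; exact permutation p = 1). Its 7 tested genes were all above 0 and 0 passed, with a median log2 difference of 0.21. Kcnq1ot1 itself had log2 ratios of -0.19, -0.12 and 0.84 in plates 1, 2 and 3. In the trend over all cells the median slope of the group was -0.16, and 0 passed. There Kcnq1ot1 had a slope of -0.16 ± 0.05 and Grk4 -0.20 ± 0.06 (SE, edgeR adjusted p = 0.413 and 0.327), and without Kcnq1ot1-rich cells -0.018 and 0.011. Both passed below 0 with no filter on low counts (edgeR adjusted p = 2.77e-13 and 1.57e-06) and without plate 3 (0.00152 and 0.0202). Of the cells, 7 high and 35 middle ones had over 2% of UMIs on Kcnq1ot1 itself, and without such cells 6 of the 7 genes were called. The part of this in the larger mt-Rnr1, mt-Rnr2 and Malat1 ratios of plate 3 was not tested. Pooled over plates, high cells lay in 16 of 16 rows and 23 of 24 columns. Such counts of occupied rows and columns cannot show whether high cells were more frequent in some region. Enrichment by region within a plate was not tested. Rim wells held 12 high cells (16.7%) and 48 middle cells (13.8%), and 3 well positions held a high cell in 2 plates.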

How the data were processed

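Per the labels, single cells were profiled by SORT-seq, and per the submitters' processing notes reads were mapped with BWA to mm10; no source used here gives the BWA version or the rules for keeping cells and genes. The table the authors deposited holds expected counts, estimated by the authors from UMIs with a correction for tag collisions and not scaled between cells, for 14355 genes and 84 spike-ins in 697 cells; 0.896% of values are not whole. The deposited CD5 fluorescence signal per cell is on the cytometer's scale. The primer sheet gave well positions only. One sorted cell was placed per well, and no doublet caller was run.

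The plate was the replicate. Counts were summed by plate and class into 12 sums of 101633 to 661742 UMIs without Rn45s and spike-ins, rounded, and fitted with edgeR 4.0.16 in R 4.3.3 (TMM scaling, filterByExpr, quasi-likelihood, plate as block, high minus middle, adjusted p under 0.05). CPM are TMM scaled, folds come from the fit, and spike-ins entered no fit. Log2 ratios and slopes of a gene within 1 plate come from log2 CPM with a prior count of 2. Classes of a plate share its library, so the plate pairs them by design; deviations of sums of the same plate correlated at 0.083 to 0.54 over 699 genes. Residual spread had 6 degrees of freedom in the class fit and 8 in the trend fit. The tests also borrowed spread across genes, with 27.3 and 27.8 prior degrees of freedom, so their p-values rest largely on this shared spread. Medians over cells were compared by exact sign-flip tests over 3 plates. The code was checked on simulated data. Positions come from GENCODE M21 on GRCm38. DESeq2 1.42.0 was an alternative, with Python 3.11.15, numpy 2.4.6, pandas 2.3.3, scipy 1.17.1 and matplotlib 3.10.9.

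The members and gene lists were chosen with earlier results of these data known. Named genes are, per fit and direction, up to 12 past the threshold whose sign all plates shared, filled to 6 by smallest p where fewer than 10 passed, up to 4 per list by smallest p, and the 8 most alike over cells. Cmss1, Cxcr5, Myo10 and Gm42418 lie outside this rule and were named after their values were seen. The sequences of Rn45s and Mir5109 were not used here. The B cell marker list is not reported here.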

Additional observations from a re-analysis of the deposited data

How the results depend on the processing

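Over 18 alternatives to the high against middle comparison the number of genes called stayed between 4 and 9, all of them higher in high cells, and Mir5109, mt-Rnr1 and Lars2 passed wherever they were tested. A mean of at least 50 counts left 638 genes and 4 calls, and cells thinned to 1 depth left 1387 genes and 4 calls, in both cases all from the 7. Without the replicate block there were also 4 calls, Filip1l, Lars2, Mir5109 and mt-Rnr1, and mt-Rnr2 (edgeR adjusted p = 0.0767) and Malat1 (0.999) did not pass. Leaving out 1 plate at a time gave 5 to 7 calls. Without plate 3 Malat1, Filip1l and Olfr1033 were lost and mtNd5 and Myo10 gained. Olfr1033 passed in 5 of 17 alternatives and Filip1l in 13 of 16. Leaving out the cell of highest Rn45s share, an alternative chosen after seeing the data, kept all 7 calls. The trend gave 22 calls with no filter (14 higher, 8 lower), 10 without the replicate block (10 higher, 0 lower) and 7 to 14 with 1 plate left out; all 9 genes kept their sign wherever tested. Some genes that did not pass changed sign. Between high and middle, the log2 difference of Tpr was -0.079 with middle cells matched on depth, -0.25 for the top 5%, -0.058 without cells of high mitochondrial share (chosen after seeing the data) and -0.12 to 0.46 with 1 plate left out. That of 2900097C17Rik was -0.051 for the top 5% and -0.014 to 1.06 with 1 plate left out, that of Folr4 -0.18 to 1.18 with 1 plate left out, and that of Sesn1 0.014 for the top 20%. With 1 plate left out the slope ran from -0.22 to 0.025 for Nfkb1 and from -0.21 to 0.0025 for Slc35c1. The cause of these changes was not tested. With means over cells in place of medians the mitochondrial share ratio was 0.11 (log2). The mitochondrial mRNA ratio was -0.17 for the top 5% and -0.09 after thinning. With no filter the median log2 difference of all genes moved to -0.18. In the sparsest sums, high cells held 101633 UMIs, so changes of genes below about 100 CPM rest on few molecules.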
